A study of Mus musculus with 29 samples.

Results

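Epidermis that had lost Dlx3 was compared with wild-type epidermis while both were under a STAT3 inhibitor, 3 days after tamoxifen. The comparison took every library of these 2 groups, 7 of the 29 samples in the series: 3 from wild-type mice (WT) and 4 from mice in which Dlx3 was deleted (icKO). The series title gives adult mice of postnatal day 42 to 46. In icKO mice tamoxifen switched on a Cre that the keratin 14 promoter drives, and this removed Dlx3 in basal keratinocytes, their descendants and any other cell that uses the promoter. All mice were of mixed background, all were described by their time after tamoxifen, and both groups received the inhibitor (STAT3i). The labels name neither the inhibitor nor its dose, and they do not say whether each library came from its own animal, so p-values measure the spread between these libraries. Day 3 epidermis treated with vehicle, per the file headers (4 WT and 4 icKO libraries), shared the fit and its estimate of spread and served to show where the inhibitor libraries differed. The remaining samples were dermis of day 3 and tissue of week 1, not used here. In the gene table, 13241 of 24543 genes reached 1 RPKM (reads per kilobase of gene, scaled to library depth) in at least 3 of the 7 libraries and were tested. Libraries are called a to c (WT) and a to d (icKO); the letters are names only.

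DLX3 is a homeobox transcription factor of the upper epidermal layers and of hair, and mutations of the human gene cause a syndrome of hair, teeth and bone. Keratinocytes leaving the basal layer switch from keratins 5 and 14 to keratins 1 and 10, then assemble a cornified envelope from cross-linked proteins such as loricrin, involucrin, and the SPRR and LCE families, and seal it with ceramide lipids. STAT3 is a latent factor that receptors of the IL-6, IL-20 and EGF families activate by phosphorylation, and in skin it is known for its part in wound repair and in psoriasis-like disease. An inhibitor acts on the STAT3 protein, which RNA levels do not report.

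Several properties of the libraries bear on all results. The files recorded between 59.7 and 70.3 M alignments for a library. Among the inhibitor libraries, genotype and sex coincided: all 3 WT libraries held the Y-linked transcript Ddx3y (9.13 to 10.3 RPKM) and all 4 icKO libraries held Xist (13.1 to 14.8 RPKM). Within the inhibitor libraries sex and deletion therefore cannot be told apart. A fit with a term for sex drew on the vehicle libraries, of which only 1 WT library was female. An icKO vehicle library with both transcripts was left out of that fit, so no other group held both sexes. The sex term was therefore the difference of WT vehicle c, the female library, from the 3 male WT vehicle libraries. In it, sex cannot be told apart from other traits of that 1 library. Libraries icKO a and icKO d lay much closer to each other (root mean square log2 difference 0.0979) than the other icKO pairs did (0.263 to 0.294) or the WT pairs (0.132 to 0.188), and whether they came from 1 animal is not given. In the vehicle groups 2 libraries went against their labels. The library labelled WT vehicle b held Dlx3 at 0.9498 RPKM, below all 8 icKO libraries of both treatments, and Krt6b at 89.2 RPKM, where the other 3 WT vehicle libraries had 1.28, 0.817 and 2.92 RPKM. The library labelled icKO vehicle c carried both Xist (7.199 RPKM) and Ddx3y (5.88 RPKM). These libraries enter the estimate of spread for every gene and all differences from vehicle. WT vehicle b is also among the male libraries that set the sex term, so its values enter every result with that term. Leaving both out, a choice made after seeing the data, gave 2850 rises and 2129 falls in the inhibitor comparison and is given beside the counts of differences from vehicle. Distances were computed for the inhibitor libraries only. Libraries icKO vehicle a and b were nearly equal in Krt6b (478 and 481 RPKM), Sprr1b (404 and 399 RPKM) and Cd74 (1140 and 1130 RPKM). Whether these came from 1 animal is not given, and both stayed in every fit with vehicle libraries. Counts of calls in each list are also given with the sex term and with the closest pair of each inhibitor group (WT a with c, icKO a with d) averaged. No vehicle pair was averaged. The epidermis was not pure. The 19 fibroblast and matrix genes summed to 10905 to 12917 RPKM in WT and 3673 to 5345 RPKM in icKO, whereas 12 keratinocyte genes of all living layers summed to 3571 to 3765 RPKM in WT and 5814 to 8772 RPKM in icKO. In such bulk samples, fewer cells of a type and less RNA per cell cannot be told apart. The part of this shift in the results below was not tested.

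Dlx3 itself was 6.77, 6.07 and 6.31 RPKM in WT libraries a to c and 1.01, 1.71, 1.66 and 1.19 RPKM in icKO libraries a to d. The groups did not overlap, and every icKO library kept some signal. The fall passed the threshold (log2 change -1.64 ± 0.37 SE, adjusted p = 0.00471, limma on log2(RPKM + 1) with Benjamini-Hochberg adjustment over all tested genes, the source of every adjusted p here). It remained past the threshold with the sex term (log2 change -2.66) and with the closest pairs averaged (log2 change -1.56). The sex term for Dlx3 was set by 7.13 RPKM in WT vehicle c, against 3.04, 0.9498 and 7.21 RPKM in WT vehicle a, b and d. It thus rested in part on WT vehicle b, which went against its label. The authors' deposited table gave a ratio of icKO to WT of 0.226 for Dlx3, with an unadjusted p of 0.00277. Over all genes tested, 2632 rose, which is 19.9%, and 1864 fell, which is 14.1%. The groups did not overlap for 6936 genes, which is 52.4%. The median log2 change over all tested genes was 0.02, and 842 rises and 498 falls were of 1.5-fold or more. With the sex term 566 genes rose and 772 fell, and with the closest pairs averaged 1449 rose and 836 fell. All 4496 genes past the threshold changed in the same direction in the authors' deposited table. That table compares the same groups of libraries, so the shared direction is not independent evidence.

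Small proline-rich (SPRR) proteins, which are cross-linked into the envelope and are made in quantity by wounded epidermis, rose in all but 1 tested member. Of 16 genes of the family, 14 were tested and 13 rose, with a median log2 change of 3.04. Sprr1b was 13.8, 5.91 and 13.1 RPKM in WT libraries a to c and 462, 793, 591 and 465 RPKM in icKO libraries a to d, the largest rise of any gene the text's rule for large changes named (log2 change 5.64 ± 0.98 SE, adjusted p = 0.00101). Sprr2h was 4.499, 3.59 and 4.84 RPKM in WT libraries a to c and 75.7, 137, 129 and 79.4 RPKM in icKO libraries a to d (log2 change 4.28 ± 0.65 SE, adjusted p = 0.000469). Sprr2d was 6.43, 4.83 and 7.62 RPKM in WT libraries a to c and 74.2, 132, 106 and 79.4 RPKM in icKO libraries a to d (log2 change 3.74 ± 0.67 SE, adjusted p = 0.00119). In all 3 of these genes each icKO library exceeded every WT library by far, and library icKO b was highest. Sprr1a, already abundant in WT, was 473 to 520.4 RPKM in WT and 1487 to 2066 RPKM in icKO (log2 change 1.73 ± 0.45 SE, adjusted p = 0.00972), a call that was lost with the closest pairs averaged. Sprr2k and Sprr3 were below the filter, and Sprr4 did not pass (log2 change 0.16, adjusted p = 0.819). Several members (Sprr2a1, Sprr2a2 and Sprr2a3 among them) are near-identical copies between which reads can be split, so their separate values are uncertain. The sex term gave 13 rises, and the averaged pairs gave 9.

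The 250 bases before the start of 3 SPRR genes, from RefSeq (GRCm38.p6), are shown because most members with a promoter entry share a short motif. They lie at chr3:92438780-92439029, minus strand (Sprr1b), chr3:92338890-92339139, plus strand (Sprr2d), and chr3:92385435-92385684, plus strand (Sprr2h). Capitals mark TGANTCA, the AP-1 type motif, searched on both strands of the window.
Sprr1b: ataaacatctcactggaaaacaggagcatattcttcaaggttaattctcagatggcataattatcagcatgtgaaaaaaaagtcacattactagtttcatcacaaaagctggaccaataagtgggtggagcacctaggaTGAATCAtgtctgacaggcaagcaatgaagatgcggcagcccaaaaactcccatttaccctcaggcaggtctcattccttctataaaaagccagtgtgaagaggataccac
Sprr2d: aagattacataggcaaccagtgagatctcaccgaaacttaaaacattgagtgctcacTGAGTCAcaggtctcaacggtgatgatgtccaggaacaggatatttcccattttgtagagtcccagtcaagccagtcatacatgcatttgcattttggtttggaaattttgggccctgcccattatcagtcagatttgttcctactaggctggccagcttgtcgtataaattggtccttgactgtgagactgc
Sprr2h: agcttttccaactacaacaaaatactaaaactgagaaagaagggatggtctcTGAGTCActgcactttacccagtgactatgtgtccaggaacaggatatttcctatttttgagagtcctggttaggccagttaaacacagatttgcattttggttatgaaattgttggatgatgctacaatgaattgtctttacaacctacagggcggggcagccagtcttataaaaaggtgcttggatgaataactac
The motif stood in 8 of the 12 tested SPRR genes with a promoter entry (66.7%), against 645 of 10189 tested genes with an entry (6.33%). It stood in none of the 6 Lce3 windows. A match is a description of letters, and SPRR genes are copies of one another whose windows share ancestry. Whether the motif bears on the rise was not tested.

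The late cornified envelope (LCE) proteins divide into groups, and here the groups went apart. All 6 Lce3 genes, a group known from wounded and psoriatic epidermis, rose from levels near 1 RPKM or below (median log2 change 3.81). Lce3d was 0.773, 0.731 and 0.448 RPKM in WT libraries a to c and 21.7, 54.7, 44.03 and 21.4 RPKM in icKO libraries a to d (log2 change 4.35 ± 0.42 SE, adjusted p = 3.23e-05). Lce3c was 1.52, 1.12 and 1.28 RPKM in WT libraries a to c and 22.3, 49.8, 47.7 and 24.96 RPKM in icKO libraries a to d (log2 change 3.93 ± 0.40 SE, adjusted p = 4.54e-05). Lce3e was 0.155 to 0.359 RPKM in WT and 12.2 to 28.6 RPKM in icKO (log2 change 3.86 ± 0.27 SE, adjusted p = 8.32e-06), and Lce3f was 0.2697 to 0.516 RPKM in WT and 12.2 to 32.4 RPKM in icKO (log2 change 3.76 ± 0.30 SE, adjusted p = 9.59e-06). Within the icKO group, libraries b and c held more of these transcripts than a and d. The sex term and the averaged pairs each gave 6 rises.

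Of the 14 Lce1 genes, which normal late keratinocytes express, 1 rose and 5 fell, and the list's median log2 change was -0.35. Lce1m was 297, 288 and 271 RPKM in WT libraries a to c and 38.99, 33.7, 36.6 and 40.8 RPKM in icKO libraries a to d (log2 change -2.90 ± 0.55 SE, adjusted p = 0.00165), one of the 6 largest falls. Lce1l was 70.6, 52.2 and 63.8 RPKM in WT libraries a to c and 20.3, 25.7, 32.6 and 21.996 RPKM in icKO libraries a to d (log2 change -1.28 ± 0.21 SE, adjusted p = 0.000739). Both were lower in every icKO library than in any WT library. Lce1j was 12.4 to 19.3 RPKM in WT and 7.28 to 11.2 RPKM in icKO (log2 change -0.85 ± 0.25 SE, adjusted p = 0.0184), and its call was lost with the sex term, with the averaged pairs and without WT a or WT c. The riser was Lce1f, at 28.2 to 50.9 RPKM in WT and 64.2 to 99.8 RPKM in icKO (log2 change 1.08 ± 0.29 SE, adjusted p = 0.0121), whose call was lost with the sex term and without WT b. Another abundant member, Lce1a1, was 126 to 152 RPKM in WT and 109 to 158 RPKM in icKO and did not pass (adjusted p = 0.665). The averaged pairs gave 2 Lce1 falls, as did leaving out WT a or WT c, and the sex term or leaving out icKO a gave 3. Lce1 genes resemble one another, so values of single members are uncertain.

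**Figure D1:**
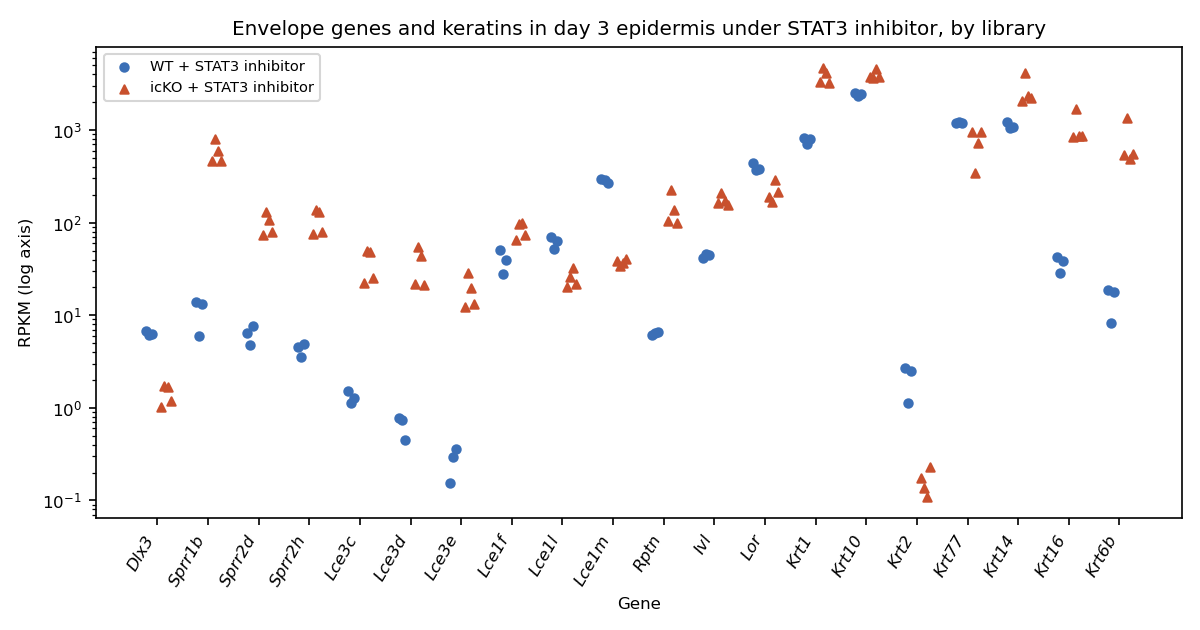
RPKM on a log axis for Dlx3, envelope genes and keratins in the 7 libraries under STAT3 inhibitor; circles are the 3 WT libraries and triangles the 4 icKO libraries, with 1 point per library. Sprr and Lce3 triangles sit above the circles, Lce1l and Lce1m triangles sit below them, and Lor, Krt2 and Krt77 triangles sit below while Rptn, Ivl and Krt1 triangles sit above.

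The scaffold proteins of the envelope also split. Of 10 tested, 6 rose and 1 fell (median log2 change 0.72), and the sex term gave 3 rises and the averaged pairs 6. Rptn, which encodes repetin, was 6.09, 6.49 and 6.62 RPKM in WT libraries a to c and 103, 225, 136 and 99.3 RPKM in icKO libraries a to d (log2 change 4.18 ± 0.47 SE, adjusted p = 7.89e-05). Cnfn, which encodes cornifelin, was 82.6 to 114 RPKM in WT and 426 to 625 RPKM in icKO (log2 change 2.46 ± 0.30 SE, adjusted p = 0.000132). Ivl, which encodes involucrin, an early scaffold, was 41.7, 45.3 and 44.7 RPKM in WT libraries a to c and 162, 211, 172 and 154 RPKM in icKO libraries a to d (log2 change 1.96 ± 0.29 SE, adjusted p = 0.000397). These 3 genes were higher in every icKO library. Lor, which encodes loricrin, the main protein of the mature envelope, was 446, 367 and 378 RPKM in WT libraries a to c and 190.0, 168, 287 and 215 RPKM in icKO libraries a to d (log2 change -0.91 ± 0.29 SE, adjusted p = 0.0287), and its call was lost with the sex term, with the averaged pairs and when any library but icKO c was left out. Krtdap was 897 to 1103 RPKM in WT and 1474 to 2233 RPKM in icKO (log2 change 0.85 ± 0.22 SE, adjusted p = 0.00937), a call lost with the sex term, and Sbsn was 519.6 to 569.7 RPKM in WT and 643 to 757 RPKM in icKO and did not pass (adjusted p = 0.099). Among filaggrin-type proteins, Flg2 was 75.2, 87.02 and 82.5 RPKM in WT libraries a to c and 37.8, 27.3, 28.9 and 37.3 RPKM in icKO libraries a to d and fell (log2 change -1.30 ± 0.31 SE, adjusted p = 0.00645). Hrnr, which encodes hornerin, was 16.5 to 18.9 RPKM in WT and 22.4 to 24.5 RPKM in icKO (log2 change 0.40 ± 0.14 SE, adjusted p = 0.0482), a call lost whichever library was left out.

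Enzymes that build and process the envelope rose. Of 10 tested cross-linking and profilaggrin-processing enzymes, 8 rose and none fell (median log2 change 1.30), and the sex term gave 6 rises and the averaged pairs 7. Casp14, the protease of terminal differentiation, was 25.7, 34.1 and 29.6 RPKM in WT libraries a to c and 116, 224, 159 and 113 RPKM in icKO libraries a to d (log2 change 2.27 ± 0.29 SE, adjusted p = 0.000174). Tgm3, a transglutaminase that cross-links envelope proteins, was 4.24, 5.46 and 3.84 RPKM in WT libraries a to c and 12.5, 20.8, 19.9 and 12.8 RPKM in icKO libraries a to d (log2 change 1.64 ± 0.29 SE, adjusted p = 0.00118). Both were lowest in icKO a and d and highest in icKO b, and no icKO value came near the WT values. Blmh, which cleaves filaggrin peptides, was 41.9 to 44.4 RPKM in WT and 116 to 161 RPKM in icKO (log2 change 1.57 ± 0.15 SE, adjusted p = 3.58e-05). Sult2b1, which makes cholesterol sulfate, was 23.3 to 25.6 RPKM in WT and 76.1 to 109 RPKM in icKO (log2 change 1.83 ± 0.16 SE, adjusted p = 2.33e-05). Asprv1, a profilaggrin protease, was 294 to 337 RPKM in WT and 647 to 915 RPKM in icKO (log2 change 1.24 ± 0.18 SE, adjusted p = 0.000358).

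Kallikreins are the serine proteases that release corneocytes from the skin surface. Of 11 genes tested (Spink5, their inhibitor, included), 9 rose and none fell, and the list's median log2 change was 1.39. Klk6 was 30.6, 30.2 and 30.5 RPKM in WT libraries a to c and 296, 623, 298 and 299 RPKM in icKO libraries a to d (log2 change 3.51 ± 0.79 SE, adjusted p = 0.00449). Klk13 was 2.198, 1.72 and 2.01 RPKM in WT libraries a to c and 21.9, 85.7, 23.8 and 24.9 RPKM in icKO libraries a to d (log2 change 3.50 ± 0.55 SE, adjusted p = 0.000531). In both genes icKO b stood far above the other 3 icKO libraries, which lay close together. Klk7, the most abundant, was 120.1 to 132 RPKM in WT and 348 to 577 RPKM in icKO (log2 change 1.72 ± 0.22 SE, adjusted p = 0.000199), Klk8 was 21.2 to 22.7 RPKM in WT and 86.1 to 167 RPKM in icKO (log2 change 2.33, adjusted p = 0.000119), and Klk9 was 11.4 to 13.8 RPKM in WT and 63.6 to 108 RPKM in icKO (log2 change 2.52, adjusted p = 5.53e-05). Under each of the sex term and the averaged pairs 7 rose. The glandular kallikrein Klk1b1, a member of another subfamily, was among the 6 largest falls at 16.002, 10.3 and 13.8 RPKM in WT libraries a to c and 1.77, 2.64, 2.09 and 1.33 RPKM in icKO libraries a to d (log2 change -2.28 ± 0.65 SE, adjusted p = 0.0157). Its call was lost with the sex term, with the averaged pairs, and without WT a or WT c. It was also lost with 0.1 in place of 1 added to RPKM before the log (adjusted p = 0.113).

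Protease inhibitors rose as well: 14 of 18 tested serpins, stefins and WAP-domain inhibitors rose and 1, Wfdc21, fell (log2 change -1.52, adjusted p = 0.00741). BC100530, a stefin-type gene, was 40.3, 33.9 and 49.9 RPKM in WT libraries a to c and 1379, 2497, 2059 and 1307 RPKM in icKO libraries a to d (log2 change 5.38 ± 1.08 SE, adjusted p = 0.00232). Stfa3, a stefin, was 34.1, 35.9 and 39.6 RPKM in WT libraries a to c and 738, 1230.1, 1346 and 705 RPKM in icKO libraries a to d (log2 change 4.69 ± 0.86 SE, adjusted p = 0.00131). Stfa2 was 5.42 to 6.47 RPKM in WT and 114 to 206 RPKM in icKO (log2 change 4.36 ± 0.85 SE, adjusted p = 0.00195), and Serpinb3a was 0.607 to 1.29 RPKM in WT and 24.97 to 48.4 RPKM in icKO (log2 change 4.13 ± 0.46 SE, adjusted p = 7.69e-05). For each of these 4 genes every icKO library was above every WT library. Stefin and Serpinb3 genes occur in near-identical copies, so the split between them is uncertain. The sex term gave 8 rises and 1 fall, and the averaged pairs gave 11 and 1.

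The lipid side of the barrier moved in 1 direction. Of 25 tested ceramide and lipoxygenase pathway genes, 21 rose and none fell, and the list's median log2 change was 0.83, and 19 rose with the averaged pairs and 14 with the sex term. Sdr9c7, a dehydrogenase of the acylceramide pathway, was 11.8, 12.2 and 12.004 RPKM in WT libraries a to c and 35.3, 50.7, 32.004 and 34.5 RPKM in icKO libraries a to d (log2 change 1.57 ± 0.14 SE, adjusted p = 2.41e-05). Cers3, the ceramide synthase for ultra-long chains, was 7.15, 7.78 and 7.48 RPKM in WT libraries a to c and 16.6, 24.5, 19.9 and 16.9 RPKM in icKO libraries a to d (log2 change 1.26 ± 0.14 SE, adjusted p = 7.15e-05). Abca12, the lipid transporter of lamellar granules, was 4.099, 5.08 and 4.38 RPKM in WT libraries a to c and 10.8, 13.7, 10.01 and 10.7 RPKM in icKO libraries a to d (log2 change 1.15 ± 0.13 SE, adjusted p = 8.89e-05). These changes were of modest size, and the 3 WT libraries lay close together. Degs2, which makes phytoceramide, was 2.12 to 2.54 RPKM in WT and 4.81 to 11.7 RPKM in icKO (log2 change 1.41 ± 0.27 SE, adjusted p = 0.00178). The most abundant members were Elovl4, a fatty acid elongase, at 284 to 312 RPKM in WT and 450.2 to 575 RPKM in icKO (log2 change 0.82 ± 0.16 SE, adjusted p = 0.00231), and Fa2h, a fatty acid hydroxylase, at 138 to 147 RPKM in WT and 231 to 317 RPKM in icKO (log2 change 0.94 ± 0.16 SE, adjusted p = 0.000767).

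Among cell contacts, 5 of 6 epidermal connexins rose, and 4 rose under each of the sex term and the averaged pairs. Gjb2, which encodes connexin 26, was 5.73, 7.28 and 6.101 RPKM in WT libraries a to c and 49.2, 89.4, 40.8 and 48.3 RPKM in icKO libraries a to d (log2 change 2.91 ± 0.42 SE, adjusted p = 0.000358). Gjb6, which encodes connexin 30, was 1.297, 1.21 and 1.32 RPKM in WT libraries a to c and 8.55, 15.7, 8.802 and 8.26 RPKM in icKO libraries a to d (log2 change 2.27 ± 0.30 SE, adjusted p = 0.000199). Both are known from hyperproliferative epidermis, and both were low in all WT libraries. The widely expressed Gja1 rose less (log2 change 0.36, adjusted p = 0.0241), a call lost with the averaged pairs and without WT a, WT b or icKO b. Of 13 tested desmosome genes, 6 rose and none fell (median log2 change 0.45), and 2 rose with the sex term and 5 with the averaged pairs. Dsc1, the desmocollin of the uppermost layers, was 12.8, 15.9 and 14.9 RPKM in WT libraries a to c and 38.3, 60.2, 47.2 and 35.02 RPKM in icKO libraries a to d (log2 change 1.55 ± 0.19 SE, adjusted p = 0.000138). Dsg1b, a desmoglein of the same layers, was 6.86 to 7.84 RPKM in WT and 19.6 to 30.7 RPKM in icKO (log2 change 1.53 ± 0.17 SE, adjusted p = 7.15e-05). Pkp1 and Pkp3, plakophilins of the plaque, rose less (log2 change 0.69 and 0.72), and both calls were lost with the sex term.

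Keratins were read by the type or layer they are known from. The 4 keratins of wounded or overgrowing epidermis all rose (median log2 change 3.90), and 4 rose also with the sex term and with the averaged pairs. Krt6b was 18.9, 8.19 and 17.8 RPKM in WT libraries a to c and 540.4, 1336, 492 and 555 RPKM in icKO libraries a to d (log2 change 5.47 ± 1.01 SE, adjusted p = 0.00137). Krt16 was 42.3, 28.9 and 38.4 RPKM in WT libraries a to c and 832, 1702, 871 and 860.0 RPKM in icKO libraries a to d (log2 change 4.78 ± 0.83 SE, adjusted p = 0.000966). Library icKO b was highest for both, and the other 3 icKO libraries lay close together far above WT. Krt6a was 83.4 to 98.2 RPKM in WT and 542 to 1513 RPKM in icKO (log2 change 3.02 ± 0.45 SE, adjusted p = 0.0004) and Krt17 was 529 to 654 RPKM in WT and 1461 to 2053 RPKM in icKO (log2 change 1.498 ± 0.27 SE, adjusted p = 0.00112). Krt6a and Krt6b are close copies, so reads may be shared between them.

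Of 6 tested keratins of the layers above the basal layer, 2 rose and 2 fell. Krt1 was 824, 713 and 796 RPKM in WT libraries a to c and 3277, 4635, 4156 and 3193 RPKM in icKO libraries a to d (log2 change 2.28 ± 0.25 SE, adjusted p = 7.25e-05). Krt10, its partner, was 2494, 2353 and 2464 RPKM in WT libraries a to c and 3761, 3678, 4611 and 3756 RPKM in icKO libraries a to d (log2 change 0.69 ± 0.16 SE, adjusted p = 0.00607), and its call was lost with the sex term and without the filter on low values. Krt2, a keratin of the upper layers, was 2.68, 1.14 and 2.505 RPKM in WT libraries a to c and 0.177, 0.136, 0.10996 and 0.231 RPKM in icKO libraries a to d (log2 change -1.38 ± 0.50 SE, adjusted p = 0.0467). Krt77 was 1181, 1230.0 and 1188 RPKM in WT libraries a to c and 947, 339.8, 716 and 951 RPKM in icKO libraries a to d (log2 change -0.81 ± 0.29 SE, adjusted p = 0.045). Neither fall remained with the sex term, which gave 1 rise, or with the averaged pairs, which gave 2 rises. The call for Krt2 was lost whichever library was left out, also without the 2 vehicle libraries (adjusted p = 0.0566), and the call for Krt77 was lost without any of the WT libraries, icKO b or icKO c. Krt77 also did not pass with the 7 inhibitor libraries fitted alone (adjusted p = 0.0715) or after quantile normalization. Without the filter on low values neither call remained. Of the basal keratins, Krt14 was 1058 to 1221 RPKM in WT and 2082 to 4152 RPKM in icKO (log2 change 1.21 ± 0.26 SE, adjusted p = 0.00363) and Krt5 was 1169 to 1202 RPKM in WT and 1721 to 2307 RPKM in icKO (log2 change 0.69 ± 0.17 SE, adjusted p = 0.00712); both calls were lost with the sex term. Over the 12 keratinocyte genes of all living layers, 7 rose and none fell, and the list's median log2 change was 0.48. The sex term gave 1 rise and 1 fall (median 0.09), and 4 rose with the averaged pairs, without WT a, and without WT c.

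Of 22 tested transcription factors of keratinocyte differentiation, 13 rose (59.1%) and none fell (median log2 change 0.46). The 12 keratinocyte genes of all living layers gave nearly the same share of rises (58.3%) and median (0.48). The part of that wider keratinocyte shift in the count of factors was not tested. Grhl3, a factor of barrier formation, was 18.5, 19.8 and 18.2 RPKM in WT libraries a to c and 48.1, 63.3, 47.98 and 48.2 RPKM in icKO libraries a to d (log2 change 1.41 ± 0.13 SE, adjusted p = 2.41e-05). Ovol1, which limits proliferation of progenitors, was 16.01, 14.4 and 14.7 RPKM in WT libraries a to c and 35.1, 55.7, 37.2 and 34.6 RPKM in icKO libraries a to d (log2 change 1.35 ± 0.15 SE, adjusted p = 7.71e-05). Library icKO b was highest for both, and the other 3 icKO libraries were nearly equal. Hopx, a homeodomain protein of late layers, was 37.9 to 40.9 RPKM in WT and 72.5 to 90.9 RPKM in icKO (log2 change 0.99 ± 0.12 SE, adjusted p = 0.000138), and Tfap2c was 8.35 to 8.81 RPKM in WT and 15.9 to 20.7 RPKM in icKO (log2 change 0.98 ± 0.15 SE, adjusted p = 0.000412), a call lost with the sex term. Klf4 was the most abundant of the list at 135 to 152 RPKM in WT and 155 to 168 RPKM in icKO and did not pass (adjusted p = 0.122). Dlx5, a homeobox relative of Dlx3, was 3.13 to 3.77 RPKM in WT and 4.57 to 6.39 RPKM in icKO (log2 change 0.47 ± 0.12 SE, adjusted p = 0.00787), a call lost with the sex term. The sex term gave 3 rises and 3 falls among these factors, and the averaged pairs gave 9 rises.

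**Figure D2:**
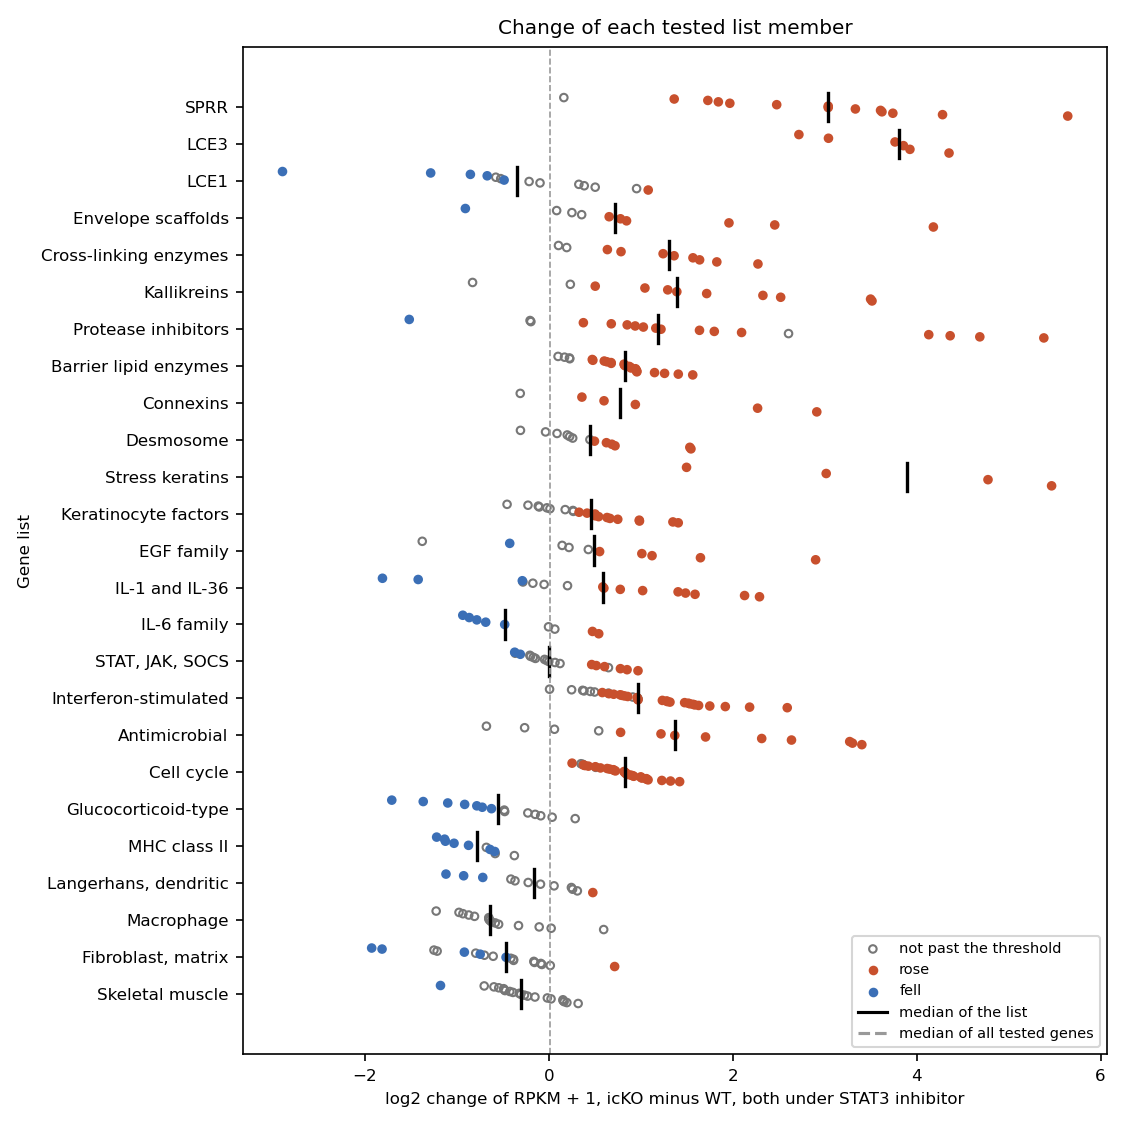
Log2 change of RPKM + 1 (icKO minus WT, both under STAT3 inhibitor) on the x axis for every tested member of 25 gene lists on the y axis; filled points rose (red) or fell (blue) past the adjusted p threshold of 0.05, open points did not pass, black bars are list medians and the dashed line is the median of all tested genes (0.02). The SPRR, LCE3 and stress keratin lists have the medians farthest to the right (3.04, 3.81 and 3.90). Single members of other lists lie as far right, such as BC100530 of the protease inhibitors (5.38). Lce1, MHC class II and glucocorticoid-type lists have medians of -0.35, -0.78 and -0.55.

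Genes of STAT signalling and of growth factor and cytokine families were read from 4 lists. Stat3 itself was 37.2, 39.3 and 38.3 RPKM in WT libraries a to c and 61.03, 51.6, 48.04 and 61.1 RPKM in icKO libraries a to d (log2 change 0.52 ± 0.11 SE, adjusted p = 0.0027), a call lost with the sex term. Socs3, the feedback inhibitor that STAT3 induces, was 7.74, 8.29 and 6.74 RPKM in WT libraries a to c and 14.4, 9.09, 9.65 and 16.5 RPKM in icKO libraries a to d (log2 change 0.61 ± 0.20 SE, adjusted p = 0.0327). All icKO libraries exceeded the WT libraries for both genes, but the Socs3 call was lost without any of the WT libraries, without icKO a or icKO d, without the filter on low values and with the averaged pairs, and with the sex term its log2 change was -0.022 (adjusted p = 0.973). Of 19 tested STAT, JAK and SOCS genes, 6 rose and 2 fell (median log2 change 0.00). Cish was 5.41 to 6.499 RPKM in WT and 10.4 to 12.3 RPKM in icKO (log2 change 0.85 ± 0.21 SE, adjusted p = 0.00739) and Socs1 was 2.48 to 3.87 RPKM in WT and 5.298 to 6.64 RPKM in icKO (log2 change 0.78 ± 0.19 SE, adjusted p = 0.00645), and the sex term removed both calls, the averaged pairs that for Cish. In this list there were 1 rise and 1 fall with the sex term, and 3 and 1 with the averaged pairs. Stat6 was 36.6 to 39.02 RPKM in WT and 31.4 to 39.3 RPKM in icKO and did not pass (adjusted p = 0.694).

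Most tested receptor genes of the IL-6 family fell, whereas ligands of the EGF and IL-36 families rose. Of 9 tested IL-6 family genes, 5 fell and 2 rose, Osmr (log2 change 0.47) and Clcf1 (log2 change 0.54), with a median log2 change of -0.48. Il6ra, the IL-6 receptor subunit, was 29.7, 26.7 and 29.4 RPKM in WT libraries a to c and 15.4, 14.7, 14.8 and 16.2 RPKM in icKO libraries a to d (log2 change -0.87 ± 0.15 SE, adjusted p = 0.000949). Il31ra, the receptor subunit for the itch cytokine IL-31, was 9.96, 9.95 and 11.6 RPKM in WT libraries a to c and 4.92, 4.56, 5.27 and 5.26 RPKM in icKO libraries a to d (log2 change -0.94 ± 0.16 SE, adjusted p = 0.000808). Il6st, which encodes the shared signal subunit gp130, was 35.7, 36.4 and 37.4 RPKM in WT libraries a to c and 26.7, 24.9, 26.000 and 25.9 RPKM in icKO libraries a to d (log2 change -0.48 ± 0.088 SE, adjusted p = 0.00133). In these 3 genes the icKO values lay in a narrow band below the WT band. Cntfr (6.39 to 6.55 RPKM in WT and 2.82 to 3.94 RPKM in icKO, adjusted p = 0.00448) and Lifr (14.8 to 16.6 RPKM in WT and 8.59 to 9.69 RPKM in icKO, adjusted p = 0.00304) also fell. The averaged pairs also gave 5 falls, and the sex term 1, Il31ra. The transcripts of the ligands Il6, Lif, Osm and Il11 were below the filter.

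In the EGF family, 5 ligands rose and the receptor gene Egfr fell (log2 change -0.42, adjusted p = 0.00379) among 10 tested. Epgn, which encodes epigen, was 2.57, 3.03 and 3.07 RPKM in WT libraries a to c and 27.5, 18.9, 46.2 and 25.5 RPKM in icKO libraries a to d (log2 change 2.90 ± 0.53 SE, adjusted p = 0.00125). Hbegf, which encodes a ligand released in wounds, was 1.84, 1.85 and 2.13 RPKM in WT libraries a to c and 6.15, 13.5, 9.03 and 5.896 RPKM in icKO libraries a to d (log2 change 1.65 ± 0.28 SE, adjusted p = 0.000809). The order of the icKO libraries differed between them: icKO c was highest for Epgn and icKO b for Hbegf. Ereg was 2.05 to 2.87 RPKM in WT and 5.22 to 8.37 RPKM in icKO (log2 change 1.12 ± 0.17 SE, adjusted p = 0.000496) and Areg was 1.26 to 1.93 RPKM in WT and 2.89 to 5.55 RPKM in icKO (log2 change 1.01 ± 0.19 SE, adjusted p = 0.00172). Epgn alone remained with the sex term, which also removed the fall of Egfr, and the averaged pairs gave 5 rises and 1 fall.

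The IL-1 and IL-36 family, alarm cytokines of keratinocytes, gave 9 rises and 3 falls among 16 tested (median log2 change 0.59). Il1f8, which encodes IL-36 beta, was 4.94, 5.84 and 5.61 RPKM in WT libraries a to c and 27.4, 45.6, 25.9 and 26.9 RPKM in icKO libraries a to d (log2 change 2.29 ± 0.34 SE, adjusted p = 0.000384). Il1f5, which encodes the IL-36 receptor antagonist, was 19.6, 18.4 and 18.5 RPKM in WT libraries a to c and 72.8, 113, 89.1 and 73.3 RPKM in icKO libraries a to d (log2 change 2.13 ± 0.22 SE, adjusted p = 4.92e-05). Agonist and antagonist were both highest in icKO b. Il1f9, which encodes IL-36 gamma, was 18.4 to 19.6 RPKM in WT and 51.7 to 67.2 RPKM in icKO (log2 change 1.59 ± 0.21 SE, adjusted p = 0.000217). Il1f10, which encodes IL-38, was 4.49, 5.45 and 5.18 RPKM in WT libraries a to c and 0.746, 0.661, 0.997 and 0.512 RPKM in icKO libraries a to d (log2 change -1.81 ± 0.54 SE, adjusted p = 0.0196), with its call lost with the averaged pairs and without WT b or WT c. Il1r2, the decoy receptor that captures IL-1, was 82.01, 77.1 and 86.5 RPKM in WT libraries a to c and 30.5, 30.2, 28.1 and 31.1 RPKM in icKO libraries a to d (log2 change -1.42 ± 0.18 SE, adjusted p = 0.000146). In this family there were 7 rises and 2 falls with the sex term, and 7 and 1 with the averaged pairs.

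Genes linked to STAT3 in the literature did not move one way. Of 20 tested, 10 rose and 3 fell, and the list's median log2 change was 0.41. Fosl1, an AP-1 subunit, was 0.206, 0.153 and 0.103 RPKM in WT libraries a to c and 2.64, 1.14, 1.72 and 2.904 RPKM in icKO libraries a to d (log2 change 1.39 ± 0.20 SE, adjusted p = 0.000356). Bcl3, a nuclear partner of NF-kappaB, was 5.77, 4.94 and 4.803 RPKM in WT libraries a to c and 15.4, 13.7, 14.6 and 16.5 RPKM in icKO libraries a to d (log2 change 1.38 ± 0.22 SE, adjusted p = 0.000692). Every icKO library was higher for both. Birc5, which encodes survivin and rises in dividing cells, was 1.88 to 2.18 RPKM in WT and 4.26 to 6.64 RPKM in icKO (log2 change 1.00 ± 0.18 SE, adjusted p = 0.00109). The 3 falls were Il6ra, Bcl2l1 (log2 change -0.56) and Cebpd (log2 change -0.41). The sex term gave 4 rises and 1 fall, and the averaged pairs 7 and 2. The STAT-type motif TTCNNNGAA, searched on both strands of the 250 bases before each start, stood in 4 of the 16 genes of this list with a promoter entry (25%) and in 715 of 10189 tested genes (7.02%).

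Interferon-stimulated genes rose in the icKO libraries to very unequal levels. Of 34 tested, 24 rose and none fell (median log2 change 0.97). Isg15, a ubiquitin-like antiviral protein, was 4.202, 3.27 and 3.67 RPKM in WT libraries a to c and 51.4, 8.28, 22.5 and 55.4 RPKM in icKO libraries a to d (log2 change 2.59 ± 0.53 SE, adjusted p = 0.0027). Ifit1, which binds foreign RNA caps, was 1.92, 1.15 and 1.83 RPKM in WT libraries a to c and 17.6, 2.69, 16.4 and 15.6 RPKM in icKO libraries a to d (log2 change 2.18 ± 0.54 SE, adjusted p = 0.00768). Oasl2 was 5.35, 4.51 and 5.81 RPKM in WT libraries a to c and 34.5, 7.57, 26.8 and 34.8 RPKM in icKO libraries a to d (log2 change 1.92 ± 0.54 SE, adjusted p = 0.0146). Library icKO b was above every WT library but nearest to them of the icKO libraries for all 3 genes. Libraries icKO a and d were among the highest, and icKO c lay between icKO b and the highest library. Oas1g, a sensor of double-stranded RNA, was 1.003, 0.591 and 1.02 RPKM in WT libraries a to c and 8.46, 1.95, 5.27 and 7.76 RPKM in icKO libraries a to d (log2 change 1.75 ± 0.38 SE, adjusted p = 0.00397). The chemokine gene Cxcl10 was 1.72, 2.45 and 1.21 RPKM in WT libraries a to c and 13.3, 2.91, 6.5999 and 11.3 RPKM in icKO libraries a to d (log2 change 1.63 ± 0.44 SE, adjusted p = 0.0127). Both Oas1g and Cxcl10 repeated the order with icKO b lowest, and the Cxcl10 call was lost without WT c. The sum of the 34 genes was 212 to 239 RPKM in WT and 252 to 724 RPKM in icKO. Without icKO b 29 members rose. The count was 13 without WT a, 11 without WT b, 15 without WT c and 13 without either icKO a or icKO d. It was 2 with the closest pairs averaged and 4 with the sex term.

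Promoters of 3 of these genes are shown because their motif is the textbook target of the interferon-activated STAT complex. They are the 250 bases before the RefSeq start in GRCm38.p6, at chr4:156200819-156201068, minus strand (Isg15), chr19:34640639-34640888, plus strand (Ifit1) and chr5:120887614-120887863, minus strand (Oas1g). Capitals mark every match of GAAANNGAAA, the interferon-stimulated response element, on either strand, and in Isg15 and Oas1g overlapping matches run together.
Isg15: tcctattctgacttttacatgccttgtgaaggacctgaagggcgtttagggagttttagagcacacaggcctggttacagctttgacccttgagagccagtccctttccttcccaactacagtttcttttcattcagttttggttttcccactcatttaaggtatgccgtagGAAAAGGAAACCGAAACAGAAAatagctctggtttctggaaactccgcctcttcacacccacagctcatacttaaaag
Ifit1: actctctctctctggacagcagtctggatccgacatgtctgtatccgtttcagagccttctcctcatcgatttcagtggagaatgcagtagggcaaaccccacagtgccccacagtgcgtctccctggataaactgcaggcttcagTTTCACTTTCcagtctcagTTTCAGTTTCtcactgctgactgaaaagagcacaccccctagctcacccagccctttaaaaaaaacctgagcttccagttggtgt
Oas1g: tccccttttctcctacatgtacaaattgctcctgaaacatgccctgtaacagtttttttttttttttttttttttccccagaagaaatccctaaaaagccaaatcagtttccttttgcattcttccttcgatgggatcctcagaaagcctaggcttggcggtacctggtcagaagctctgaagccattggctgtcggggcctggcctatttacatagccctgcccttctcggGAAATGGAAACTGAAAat
The element stood in 11 of the 24 tested list members with a promoter entry (45.8%), against 333 of 10189 tested genes with an entry (3.27%). Members rose both with and without it. Of those without it, Oasl2 rose (log2 change 1.92) and Ifit2 did not pass (adjusted p = 0.256). Trim30a carried it and did not pass (log2 change 0.0082, adjusted p = 0.986). A match describes letters and says nothing of occupancy in these libraries. Whether the element bears on the rise was not tested.

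Of 13 tested antimicrobial and alarm proteins, 9 rose and none fell (median log2 change 1.37). S100a8 was 13.6, 15.3 and 15.9 RPKM in WT libraries a to c and 114, 412, 147 and 112 RPKM in icKO libraries a to d (log2 change 3.40 ± 0.71 SE, adjusted p = 0.00298). S100a9, its partner in calprotectin, was 15.1, 17.6 and 14.9 RPKM in WT libraries a to c and 128, 324, 146 and 123 RPKM in icKO libraries a to d (log2 change 3.30 ± 0.62 SE, adjusted p = 0.00152). Library icKO b was highest for both by more than 2-fold. Neutrophils also make calprotectin, and of 11 neutrophil genes 4 were tested, with 1 rise (Cxcr2) and 1 fall (Mpo); the list summed to 19.4 to 20.4 RPKM in WT and 12.4 to 18.1 RPKM in icKO, and the defining markers Ly6g (at most 0.0871 RPKM) and Ngp (at most 0.181 RPKM) were near 0 in all 7 libraries. Defb3, a beta-defensin of keratinocytes, was 0.677, 0.546 and 0.968 RPKM in WT libraries a to c and 14.5, 15.96, 16.1 and 16.1 RPKM in icKO libraries a to d (log2 change 3.27 ± 0.40 SE, adjusted p = 0.000138), nearly equal in the 4 icKO libraries. Saa3 was 0.0684 to 0.258 RPKM in WT and 4.16 to 11.3 RPKM in icKO (log2 change 2.64 ± 0.46 SE, adjusted p = 0.00106). The sex term gave 5 rises, S100a8 not among them, and the averaged pairs gave 7. Of the neutrophil genes, none fell under either alternative.

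**Figure D3:**
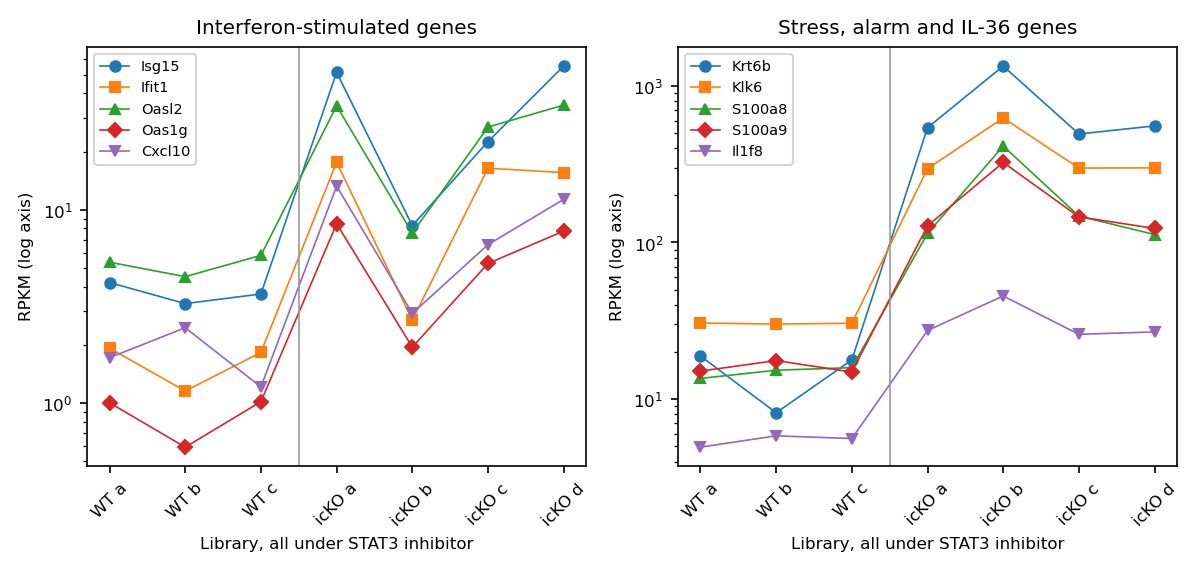
RPKM on a log axis in each of the 7 libraries under STAT3 inhibitor (x axis, WT left of the grey line) for 5 interferon-stimulated genes (left panel) and 5 stress, alarm and IL-36 genes (right panel); lines join the values of a gene and imply no order of libraries. Library icKO b has the lowest icKO values in the left panel (Isg15 at 8.28 RPKM) and the highest in the right panel (Krt6b at 1336 RPKM).

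Cell cycle genes rose almost without exception. Of 32 tested, 29 rose and none fell (median log2 change 0.83), and the groups did not overlap for any of the 32, against 52.4% of all tested genes. Cdc20, which activates the anaphase-promoting complex, was 7.15, 6.75 and 5.87 RPKM in WT libraries a to c and 17.98, 29.6, 14.04 and 18.4 RPKM in icKO libraries a to d (log2 change 1.42 ± 0.26 SE, adjusted p = 0.00126). Ccnb1, the mitotic cyclin B1, was 3.84, 4.204 and 3.87 RPKM in WT libraries a to c and 10.6, 17.4, 8.04 and 11.3 RPKM in icKO libraries a to d (log2 change 1.32 ± 0.22 SE, adjusted p = 0.00085). Library icKO b was highest and icKO c lowest of the icKO group for both. Ccnb2 was 4.08 to 4.48 RPKM in WT and 8.73 to 16.4 RPKM in icKO (log2 change 1.23 ± 0.22 SE, adjusted p = 0.00108) and Ccna2 was 5.87 to 6.07 RPKM in WT and 11.1 to 18.7 RPKM in icKO (log2 change 1.08 ± 0.20 SE, adjusted p = 0.00156). Pcna, the most abundant, was 49.7 to 53.7 RPKM in WT and 54.9 to 72.5 RPKM in icKO and did not pass (adjusted p = 0.0888). The averaged pairs gave 20 rises, and the sex term gave 4, with a median log2 change of 0.74.

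Genes that glucocorticoids are known to induce were lower: 7 of 14 tested fell and none rose (median log2 change -0.55). Zbtb16 was 21.3, 14.4 and 23.5 RPKM in WT libraries a to c and 3.39, 7.98, 7.86 and 3.33 RPKM in icKO libraries a to d (log2 change -1.71 ± 0.48 SE, adjusted p = 0.0148). Fkbp5, a chaperone partner of the glucocorticoid receptor, was 84.2, 59.9 and 83.02 RPKM in WT libraries a to c and 21.7, 30.3, 44.9 and 21.9 RPKM in icKO libraries a to d (log2 change -1.37 ± 0.42 SE, adjusted p = 0.0225). Libraries icKO a and d were lowest for both. Tsc22d3, which encodes the glucocorticoid-induced leucine zipper, was 229, 199 and 224 RPKM in WT libraries a to c and 95.9, 112, 97.8 and 98.04 RPKM in icKO libraries a to d (log2 change -1.10 ± 0.18 SE, adjusted p = 0.00081). Fam107a was 4.15 to 5.14 RPKM in WT and 1.39 to 3.199 RPKM in icKO (log2 change -0.91 ± 0.32 SE, adjusted p = 0.0401). The averaged pairs gave 3 falls and the sex term 4, Tsc22d3 in both; 3 fell without WT a and 4 without WT c. The calls for Zbtb16 and Fkbp5 were lost without WT a or WT c, that for Fkbp5 also without icKO a or icKO d, and that for Fam107a without any library but icKO c. In the retinoid list, 5 of 16 tested rose and 2 fell, against 3 and 1 under each of the sex term and the averaged pairs. Aldh1a3, which makes retinoic acid, was 2.23, 1.79 and 2.34 RPKM in WT libraries a to c and 18.7, 31.6, 13.9 and 18.5 RPKM in icKO libraries a to d (log2 change 2.74 ± 0.27 SE, adjusted p = 3.58e-05). Crabp2, which carries it to the nucleus, was 25.7 to 30.6 RPKM in WT and 61.4 to 121 RPKM in icKO (log2 change 1.42 ± 0.23 SE, adjusted p = 0.000667). Rdh12, a retinol dehydrogenase gene, also rose (17.8 to 20.8 RPKM in WT and 38.2 to 47.9 RPKM in icKO, adjusted p = 0.000277).

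Of 10 tested MHC class II genes, which antigen-presenting cells express, 7 fell and none rose (median log2 change -0.78). Cd74, the invariant chain, was 2790.5, 2231 and 2506 RPKM in WT libraries a to c and 1322, 1076, 894 and 1355 RPKM in icKO libraries a to d (log2 change -1.12 ± 0.26 SE, adjusted p = 0.00492). H2-Aa was 1164, 1096 and 1179 RPKM in WT libraries a to c and 642, 512, 477 and 629 RPKM in icKO libraries a to d (log2 change -1.03 ± 0.22 SE, adjusted p = 0.00347). H2-Ob was 7.56, 7.78 and 8.52 RPKM in WT libraries a to c and 3.903, 1.98, 1.94 and 4.04 RPKM in icKO libraries a to d (log2 change -1.22 ± 0.18 SE, adjusted p = 0.000354). All icKO libraries were below all WT libraries, with icKO b and c lowest. H2-Oa was 5.46 to 6.39 RPKM in WT and 1.197 to 2.96 RPKM in icKO (log2 change -1.13 ± 0.23 SE, adjusted p = 0.00222). The averaged pairs gave 5 falls and the sex term 2, H2-Oa and H2-Ob. Of 12 tested Langerhans and dendritic cell markers 3 fell and 1, Epcam, rose (log2 change 0.48). Cd207, which encodes langerin of Langerhans cells, was 25.01, 22.4 and 23.99 RPKM in WT libraries a to c and 18.6, 11.9, 9.48 and 18.4 RPKM in icKO libraries a to d (log2 change -0.72 ± 0.18 SE, adjusted p = 0.00843). Flt3, a receptor of dendritic cell growth, was 3.86 to 4.02 RPKM in WT and 1.08 to 2.02 RPKM in icKO (adjusted p = 0.00171), Cd209a was 46.1 to 52.2 RPKM in WT and 17.3 to 26.9 RPKM in icKO (adjusted p = 0.0107). The sex term removed all 4 of these calls, and the averaged pairs left the 3 falls. None of 15 macrophage markers passed in the limma fit of 15 libraries (median log2 change -0.64), whereas 11 fell and 1 rose when the 7 inhibitor libraries were fitted alone, and the median with the sex term was 0.89.

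Skint genes encode membrane proteins of keratinocytes that shape epidermal gamma-delta T cells. Of 11 tested, 4 fell and 2 rose (18.2%), where 14.1% of all tested genes fell and 19.9% rose. Skint10 was 9.74, 17.6 and 11.8 RPKM in WT libraries a to c and 4.05, 3.56, 4.38 and 3.73 RPKM in icKO libraries a to d (log2 change -1.47 ± 0.48 SE, adjusted p = 0.0288). Skint9 was 32.5 to 43.6 RPKM in WT and 10.3 to 19.8 RPKM in icKO (log2 change -1.13 ± 0.34 SE, adjusted p = 0.0193), Skint7 was 4.87 to 7.59 RPKM in WT and 1.54 to 2.53 RPKM in icKO (adjusted p = 0.0247), and Skint5 was 2.56 to 3.6997 RPKM in WT and 0.597 to 1.55 RPKM in icKO (adjusted p = 0.0433). None of these 4 falls remained with the averaged pairs or without WT b, WT c or icKO b, the sex term removed those for Skint9 and Skint5, and Skint genes are close relatives among which reads may be shared. Skint3 rose, at 10.3 to 14.9 RPKM in WT and 18.8 to 22.5 RPKM in icKO (log2 change 0.69 ± 0.12 SE, adjusted p = 0.0012), and remained under both alternatives. Among 18 tested T cell genes 3 rose (16.7%) and 1 fell, both below the shares over all tested genes. The sex term gave 1 rise and 2 falls, and the averaged pairs 0 and 1.

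Other large changes came from outside these lists. Krtap3-2, a hair keratin-associated protein gene, was 24.2, 23.4 and 21.4 RPKM in WT libraries a to c and 0.381, 0.547, 0.431 and 0.326 RPKM in icKO libraries a to d (log2 change -4.08 ± 0.86 SE, adjusted p = 0.00314). Of 14 hair shaft keratins 1 was tested, and the defining markers Krt31, Krt33a, Krt35, Krt85 and Krt86 were at most 0.167 RPKM in every library. Adh6a, an alcohol dehydrogenase gene, was 29.04, 29.5 and 31.02 RPKM in WT libraries a to c and 7.46, 2.44, 6.19 and 7.398 RPKM in icKO libraries a to d (log2 change -2.25 ± 0.36 SE, adjusted p = 0.000667). Inmt, a methyltransferase gene, was 145, 126 and 135 RPKM in WT libraries a to c and 23.3, 28.4, 38.3 and 23.01 RPKM in icKO libraries a to d (log2 change -2.25 ± 0.31 SE, adjusted p = 0.000282). Both genes were lower in every icKO library than in any WT library, and both calls remained with the sex term and the averaged pairs. The complement gene C7 was 8.72 to 13.3 RPKM in WT and 0.788 to 1.04 RPKM in icKO (log2 change -2.57 ± 0.93 SE, adjusted p = 0.0469), a call lost with the averaged pairs and whichever library was left out; with the sex term its log2 change was 0.52. Cyp2g1, a cytochrome P450 gene, was 0.627, 0.728 and 0.598 RPKM in WT libraries a to c and 88.3, 21.2, 19.7 and 85.5 RPKM in icKO libraries a to d (log2 change 4.72 ± 1.18 SE, adjusted p = 0.00815). Its icKO values formed a high pair (a and d) and a low pair (b and c). The vehicle-treated WT libraries held 3.19, 1.46, 162 and 1.31 RPKM, the highest being the single female WT library. The icKO vehicle libraries a to d held 7.54, 7.37, 3.91 and 23.9 RPKM, of which a, b and d had Xist with almost no Ddx3y. The call was lost with the averaged pairs, and the log2 change with the sex term was -1.11. Of 19 fibroblast genes 5 fell and 1 rose (median log2 change -0.46), and 2 or 3 fell whichever library was left out. The averaged pairs gave 2 falls and 1 rise. The sex term, set by 1 female WT library, gave 1 fall and 3 rises with a median of 1.00, so the direction of the list turned. Col1a1 was 3695, 2874 and 3437 RPKM in WT libraries a to c and 936, 956, 657 and 983 RPKM in icKO libraries a to d (log2 change -1.93 ± 0.68 SE, adjusted p = 0.0429) and Dcn was 1055 to 1212 RPKM in WT and 510.2 to 638 RPKM in icKO (log2 change -0.92 ± 0.19 SE, adjusted p = 0.00238), a call lost with the sex term (adjusted p = 0.125). The Col1a1 call was lost with the averaged pairs and whichever library was left out, and with the sex term Col1a1 rose past the threshold (log2 change 1.44, adjusted p = 0.0408). That term was set by Col1a1 at 316 RPKM in WT vehicle c, against 3452, 2269 and 4482 RPKM in WT vehicle a, b and d. Of 21 skeletal muscle genes 1 fell, and none with the sex term or the averaged pairs. Acta1 was 4059 to 4598 RPKM in WT and 2185 to 4139.5 RPKM in icKO and did not pass (adjusted p = 0.221).

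The icKO change under the inhibitor was set against the icKO change in vehicle-treated skin in the same fit. For Dlx3 itself the log2 change was -1.64 with the inhibitor and -0.87 without it, a difference of -0.77 ± 0.51 SE, adjusted p = 0.371. With the 2 vehicle libraries that went against their labels left out, the vehicle change of Dlx3 was -1.40 and the difference -0.24 (adjusted p = 0.651). Over all tested genes the difference passed the threshold upward for 115 (0.869%) and downward for 210 (1.59%). The count depended strongly on the libraries. Leaving out the 2 vehicle libraries gave 490 upward and 1047 downward, all 325 of the full fit among them. The limma fit gave 0 with the closest pairs averaged, 0 without WT a and 0 without WT c, with 2225, 2478 and 2377 genes respectively at an unadjusted p under 0.05, and 37 with the sex term. The vehicle libraries differed from the inhibitor libraries in the mix of sexes, so the inhibitor and sex cannot be told apart in these differences.

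The genes of lowest adjusted p in the upward direction were led by Fam89a, with log2 changes of 1.16 with the inhibitor and 0.21 without it, a difference of 0.95 ± 0.14 SE, adjusted p = 0.0137. Tuba4a, a tubulin gene (difference 0.71, adjusted p = 0.0137), Dusp18, a phosphatase gene (0.62, adjusted p = 0.0137), and Perm1 (0.83, adjusted p = 0.0204) followed. In the downward direction St3gal4, a sialyltransferase gene, led with log2 changes of -0.72 with the inhibitor and 0.01 without it, a difference of -0.73 ± 0.086 SE, adjusted p = 0.0105. Grk3, a receptor kinase gene (difference -0.74, adjusted p = 0.0137), Wdfy2 (-0.96, adjusted p = 0.0137) and Mkl1, which encodes an actin-responsive coactivator (-0.81, adjusted p = 0.0137), followed. All 27 named genes with such a difference kept it, in the same direction, with the 2 vehicle libraries left out.

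Of 25 lipid barrier genes, 5 had a higher icKO change under the inhibitor that passed the threshold, and none with the closest pairs averaged, without WT a or without WT c. The list median was 0.83 with it and 0.39 without it (0.45 with the 2 vehicle libraries left out), and 10 differed upward with those libraries left out. Sdr9c7 had log2 changes of 1.57 with the inhibitor and 0.43 without it, a difference of 1.14 ± 0.19 SE, adjusted p = 0.0244. Cers3 (difference 0.91, adjusted p = 0.037) and Abca12 (0.88, adjusted p = 0.037) differed likewise. Krt10 had log2 changes of 0.69 with the inhibitor and -0.29 without it, a difference of 0.99 ± 0.22 SE, adjusted p = 0.0418. Dsc1 (difference 1.31, adjusted p = 0.0347), Grhl3 (0.86, adjusted p = 0.0366) and Lce3f (1.96, adjusted p = 0.037) also had higher icKO changes under the inhibitor.

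MHC class II genes had a list median of -0.78 with the inhibitor and 0.42 without it (0.68 with the 2 vehicle libraries left out), and 5 of 10 differed downward, or 9 with those libraries left out. Cd74 had log2 changes of -1.12 with the inhibitor and 0.37 without it, a difference of -1.50 ± 0.35 SE, adjusted p = 0.0464, and its difference was -1.82 with those libraries left out. In vehicle-treated skin Cd74 was 829.8, 1454, 559.8 and 648 RPKM in WT libraries a to d, all below the 3 WT libraries under the inhibitor. The icKO libraries of both treatments lay closer together, with 968 to 1140.4 RPKM without the inhibitor.

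For stress genes the choice of vehicle libraries changed the answer. The Krt6b difference was -0.55, adjusted p = 0.835 with all libraries and -2.16 (adjusted p = 0.0291) with the 2 vehicle libraries left out, where its vehicle change was 7.63. Of the 14 SPRR genes, 0 differed in the full limma fit and 7 differed downward with the 2 left out; Sprr1b did not pass in either (0.21, adjusted p = 0.939, and -1.35, adjusted p = 0.167). WT levels of Krt6b were 8.19 to 18.9 RPKM under the inhibitor and 0.817 to 2.92 RPKM in the 3 other WT vehicle libraries. For the interferon-stimulated genes, 24 rose with the inhibitor and 0 without it in the full limma fit (2 with the 2 left out), but the difference passed for none of the 34 in either. The Isg15 difference was 1.71, adjusted p = 0.171, and 1.34 (adjusted p = 0.289) with the 2 left out.

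**Figure D4:**
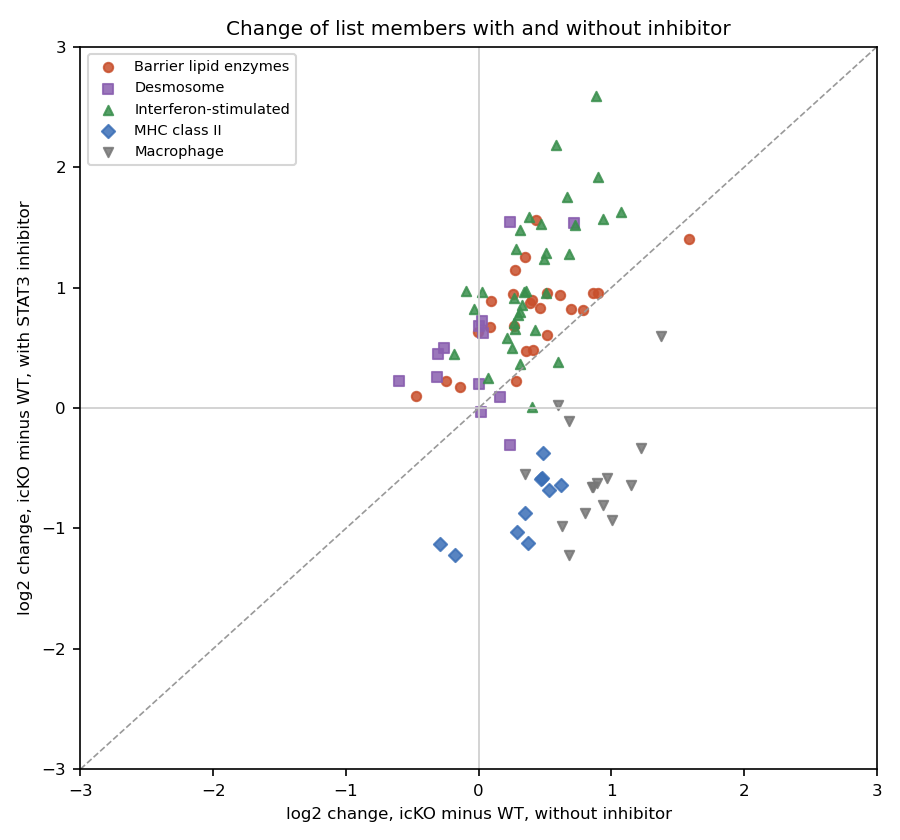
Log2 change of RPKM + 1 (icKO minus WT) without inhibitor on the x axis and with STAT3 inhibitor on the y axis for the tested members of 5 gene lists, with 1 point per gene and the dashed line marking equal change. Lipid enzymes lie mostly above the line (medians 0.83 and 0.39), and all MHC class II and macrophage genes lie below it (medians -0.78 and 0.42, and -0.64 and 0.87).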

How the data were processed

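Day 3 epidermis was sequenced as cDNA made with a NEBnext kit and a NuGen library kit. Per the submitters' processing notes and the file headers, the authors aligned reads to mm10 with TopHat2 2.1.0 and computed the deposited RPKM values per gene in Partek. From the authors' deposited comparison table, only the ratio of icKO to WT under the inhibitor and its unadjusted p-value were read. How reads shared by similar genes were split, and whether strand was kept, is not given in the labels or headers. Values of 15 day 3 epidermis libraries were analysed as log2(RPKM + 1) with limma 3.58.1 in R 4.3.3 (empirical Bayes with an intensity trend, 11 residual degrees of freedom), in 1 fit over 4 groups, for genes at 1 RPKM or more in at least 3 of the 7 inhibitor libraries. The tests were two-sided, adjusted by Benjamini-Hochberg with a threshold of 0.05. A fold on this scale understates the change of low genes. The files give no read counts per gene, so no counting intervals are given, and depth is the recorded alignments per library. The script was tested on simulated data.

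The comparison, gene lists and named genes were chosen with earlier results of these data known. Named were Dlx3, Stat3 and Socs3; the 6 largest rises and falls with groups that did not overlap and a mean of 10 RPKM in the higher group, sex-linked genes, pseudogenes and unnamed gene models left out; in each list reported, the 4 largest changes past the threshold and the 2 most abundant members; and the 4 lowest adjusted p in each direction for a difference from vehicle. Other genes were named after their values were seen: Sprr4, Wfdc21, Osmr, Clcf1, Egfr, Epcam, Cxcr2, Mpo, Bcl2l1, Cebpd, Sprr2k, Sprr3, Sprr2a1 to Sprr2a3, and the markers quoted at low levels. Trim30a and Ifit2 were also named in this way. The columns name a group and no replicate number. Promoters (RefSeq, GRCm38.p6) matched 10189 of the 13241 tested genes by symbol. Results for some genes are not reported here.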

Additional observations from a re-analysis of the deposited data

Results flagged for a closer look

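Of 137 genes checked among the 4 icKO libraries, 22 had 1 library set apart from the other 3 by Dixon's limit for a group of 4. Chance flags about 1 in 20 where the 4 libraries are independent, which is not known here. The limit is relative to the range of the 4 values, so a small gap can pass it. Defb3 passed it with 14.5 against 15.96 to 16.1 RPKM. Libraries icKO a and d lay close together for most genes. Library icKO b was the high one for 15 genes: Crabp2 (121 RPKM), Gjb6 (15.7), Grhl3 (63.3), Il1f8 (45.6), Klk13 (85.7), Klk6 (623), Krt14 (4152), Krt16 (1702), Krt6a (1513), Krt6b (1336), Ovol1 (55.7), S100a8 (412), S100a9 (324), Sprr1a (2066) and Tsc22d3 (112). It was the low one for Ifit1 (2.69 RPKM) and Skint9 (10.3 RPKM). Library icKO c was high for Krt10 (4611 RPKM) and Lce1j (11.2 RPKM) and low for Col1a1 (657 RPKM) and Pcna (54.9 RPKM), and icKO a was low for Defb3 (14.5 RPKM).

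The icKO change differed with and without inhibitor, by the test of the difference itself, for 27 of the genes checked. As log2 differences, inhibitor minus vehicle, the positive ones were Abca12 0.88, Blmh 0.88, Cers3 0.91, Dlx5 0.97, Dsc1 1.31, Dusp18 0.62, Ereg 1.08, Fam89a 0.95, Grhl3 0.86, Krt1 1.40, Krt10 0.99, Lce3f 1.96, Ovol1 0.94, Perm1 0.83, Pkp1 0.68, Sdr9c7 1.14, Sult2b1 1.00 and Tuba4a 0.71. Among them the vehicle change itself was negative for Dlx5 (-0.49), Krt10 (-0.29) and Perm1 (-0.20). The negative differences were Cd209a -1.94, Cd74 -1.50, Cntfr -1.01, Grk3 -0.74, H2-Aa -1.32, H2-Ob -1.04, Mkl1 -0.81, St3gal4 -0.73 and Wdfy2 -0.96. All 27 held with the vehicle libraries labelled WT b and icKO c left out, and none passed when WT a or WT c was left out or the closest pairs were averaged. What lies behind these values was not tested.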

How the results depend on the processing

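Counts moved with the sex term, with the close pairs and with the libraries used; the causes were not tested. With the sex term, 566 genes rose, 772 fell and 37 differed between inhibitor and vehicle; 977 of the 4496 calls remained in the same direction and 226 turned sign. With the closest pairs averaged, 1449 rose, 836 fell and 0 differed; averaging only the icKO pair, an alternative chosen after seeing the data, left 69 differences. Leaving out the vehicle libraries labelled WT b and icKO c, also chosen after seeing the data, gave 1537 differences, 2850 rises and 2129 falls. Fitting the 7 libraries alone gave 2833 falls, and leaving out the filter on low values gave 115 differences. Leaving out 1 library gave 1859 to 2568 rises, 1098 to 1633 falls and 0 to 84 differences, where the full fit gave 2632, 1864 and 325; the extremes for falls were without WT c and without icKO d. The share of calls that were rises was 58.5%, against 51.6% after quantile normalization, 51.9% after median centring and 42.3% with the sex term. The fall of Dlx3 passed the threshold in all alternatives run, with a log2 change of -1.70 to -1.56 over the left-out libraries. Of 131 named genes past the threshold, 83 remained past it with the sex term and 107 with the averaged pairs. Values changed sign with the sex term for Socs3 (-0.022), Sbsn (-0.028), Klf4 (-0.12), Stat6 (0.11), Pcna (-0.063), Col1a1 (1.44, a rise past the threshold), Cyp2g1 (-1.11) and C7 (0.52); Lce1a1 was 0.019 with the averaged pairs, and Stat6 was -0.079 to 0.027 over the left-out libraries, the positive value without icKO c. No paired analysis was possible because the columns carry no replicate numbers. RPKM without counts limits what can be said of genes near 1 RPKM.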
